A study of Mus musculus with 16 samples.

Results

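Among the CD45+ leukocytes of rejecting kidney allografts 1 week after transplantation, 838 of 11948 cells were Il1b-high myeloid cells. A cell was taken as one when it held at least 3 unique molecular identifiers (UMIs, each standing for 1 captured mRNA molecule) of Il1b, a sum of C1qa, C1qb, and C1qc under 3, fewer than 2 UMIs of Arg1, and no UMI of Cd3e, Cd3d, Cd3g, or Cd79a. The cells were thus chosen by their measured counts of these 9 genes. The limits leave out complement-rich macrophages, Arg1+ macrophages, and lymphocytes. The 838 cells were 374 of 5377 cells (6.96%) in the library tagged R7K2 and 464 of 6571 cells (7.06%) in the library tagged R7K3, out of 59008 CD45+ cells with counts that were used here.

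The rejection model was a B6 kidney placed in a DBA/2J recipient with both native kidneys removed, without any drug named in the labels, and viable CD45+ cells of the graft were sorted for droplet scRNA-seq (Chromium Next GEM 3′ chemistry). The only other CD45+ count matrix used here was naive spleen, with 5 library tags (NS1 to NS5) and 47060 cells from untransplanted mice. The labels give strain C57BL/6J and genotype WT for both, without naming donor or recipient, the study used male mice, and ages and the number of rejecting mice are not given in the sources used here. The study treated each mouse as a sample of its own, but nothing ties these tags to mice, so they are called libraries, and a spread between them may be technical. Sorted CD45+ cells of a graft can come from the donor or from the recipient, and the counts used here do not separate these.

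Il1b encodes interleukin-1β, a fever-inducing cytokine that myeloid cells make as an inactive precursor once pattern receptors or cytokine receptors activate NF-kB. The inflammasome, built around sensors such as NLRP3, then activates caspase-1, which cleaves the precursor. Released IL-1β acts on the IL-1 receptor, and the receptor antagonist IL1RN and the decoy receptor IL1R2 limit its action. In kidney injury and rejection, monocytes that enter from the blood are a well-known source of IL-1β, and they mature in the tissue into macrophages and dendritic cells.

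The kidney libraries held 13437087 and 19552578 UMIs, and the naive spleen libraries held between 30054753 and 37016197. Of the 1275 kidney cells with at least 3 Il1b UMIs, 326 were over the C1q limit, 30 were over the Arg1 limit, and 173 had a lymphocyte UMI, with some cells counted under more than 1 limit. The median Il1b-high cell had 2189.5 UMIs and 1187.5 genes in R7K2 and 2588 UMIs and 1358 genes in R7K3, with 0.883% and 0.576% mitochondrial UMIs. Its Il1b count was 6 at the median of either library, with a highest value of 36 in R7K2 and 41 in R7K3, and 62 and 93 cells were at the limit of 3. None of the 838 cells was among the 2184 cells that the authors deposited as CD8+ T cells of the same grafts. The libraries shared 13 cell barcodes, and 1 of these belonged to an Il1b-high cell.

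The label of myeloid cells was checked on genes that the limits did not use for these cells. A UMI of Lyz2 (lysozyme) or Csf1r (the receptor of macrophage colony-stimulating factor) was found in 819 of the 838 cells. A Lyz2 UMI alone is partly background, since it was found in 96.4% of the Il1b-high cells and in 26.9% of T cells, which should lack it (median depths of 2438.5 and 2108 UMIs). T cells here and below held at least 2 UMIs of Cd3e, Cd3d, and Cd3g together and no Csf1r UMI. The limit on Csf1r can leave out T cells with much myeloid RNA, so background shares in them may be low. A Csf1r UMI was found in 66.3% of the Il1b-high cells. Genes of other lineages were low. All 9 mast cell and basophil genes were at 0, the 7 platelet genes summed to 1.08 and 1.43 CPM (UMIs of the genes per 1000000 UMIs of the cells) in R7K2 and R7K3, the 5 erythroid genes to 6.46 and 2.86 CPM, and the 15 genes of kidney parenchyma to 10.8 and 4.997 CPM. The 7 B and plasma cell genes that the limits did not use summed to 22.6 and 27.8 CPM. The 11 T and NK cell genes that the limits did not use summed to 34.5 and 55.7 CPM. A UMI of Nkg7 or Gzma, cytotoxic granule genes, was found in 2.27% of the cells.

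Since Il1b chose these cells, everything that follows within the kidney is a description without a test. The comparison cells were Il1b-negative cells with a Lyz2 or Csf1r UMI in the same library, either all of them (6543 cells, of which 1742 were over the C1q limit and 1429 had a lymphocyte UMI) or the 3616 that met the same limits on C1q, Arg1, and lymphocyte genes (959 in R7K2 and 2657 in R7K3). The cells within the limits are the main comparison. Their median depth was 1831 and 2212 UMIs, below that of the Il1b-high cells, and their 11 T and NK cell genes summed to 362 and 227 CPM, above it. The part of either difference in the values below was not tested. A gene was called higher or lower when its CPM differed at least 2-fold the same way in both libraries, at a mean of at least 20 CPM, with the genes of the rule left out.

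Against the cells within the limits, 130 of 6102 genes (2.13%) were called higher and 73 (1.2%) lower. Against all Il1b-negative myeloid cells, 201 of 6244 genes (3.22%) were called higher and 243 (3.89%) lower. The median gene had a log2 ratio of -0.14 within the limits, and TMM factors in place of plain totals moved this median by 0.17 to 0.03. Under TMM the calls were 199 higher and 33 lower, so that the share of calls that were higher was 85.8% and not 64.0%. Against all Il1b-negative cells that share was 62.6% under TMM and 45.3% with plain totals. The list medians below are log2 ratios of counts pooled over both libraries, with plain totals. Since R7K2 held 374 of the 838 Il1b-high cells but 959 of the 3616 Il1b-negative cells, a pooled ratio can lie outside the ratios of both libraries. With equal weight for each library, an alternative added after seeing the data, the median of all genes was -0.12, that of immediate early genes was 1.48 in place of 1.66, and that of NF-kB genes was 1.04 in place of 1.12.

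The genes named with these cells were Cxcl2, Cd14, and Thbs1. Cxcl2, a chemokine that attracts neutrophils, was at 945 CPM in R7K2 and 957 CPM in R7K3, against 54.6 and 31.0 CPM in the Il1b-negative cells within the limits. The ratios were 17.3 and 30.8, and the pooled ratio of 26.1 (95% interval 23.2 to 29.5, counting error only) was the largest of any gene that reached a mean level of 100 CPM. Cd14, the coreceptor that hands bacterial lipopolysaccharide to TLR4, was at 403 and 319 CPM against 68.0 and 31.8 CPM. Thbs1, a matrix protein also known as thrombospondin-1, was at 127 and 87.8 CPM against 24.7 and 5.65 CPM, a ratio of 5.14 in R7K2 and 15.5 in R7K3. All 3 genes were higher in both libraries, and R7K3 had the larger ratio and the lower level in Il1b-negative cells each time.

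**Figure D1:**
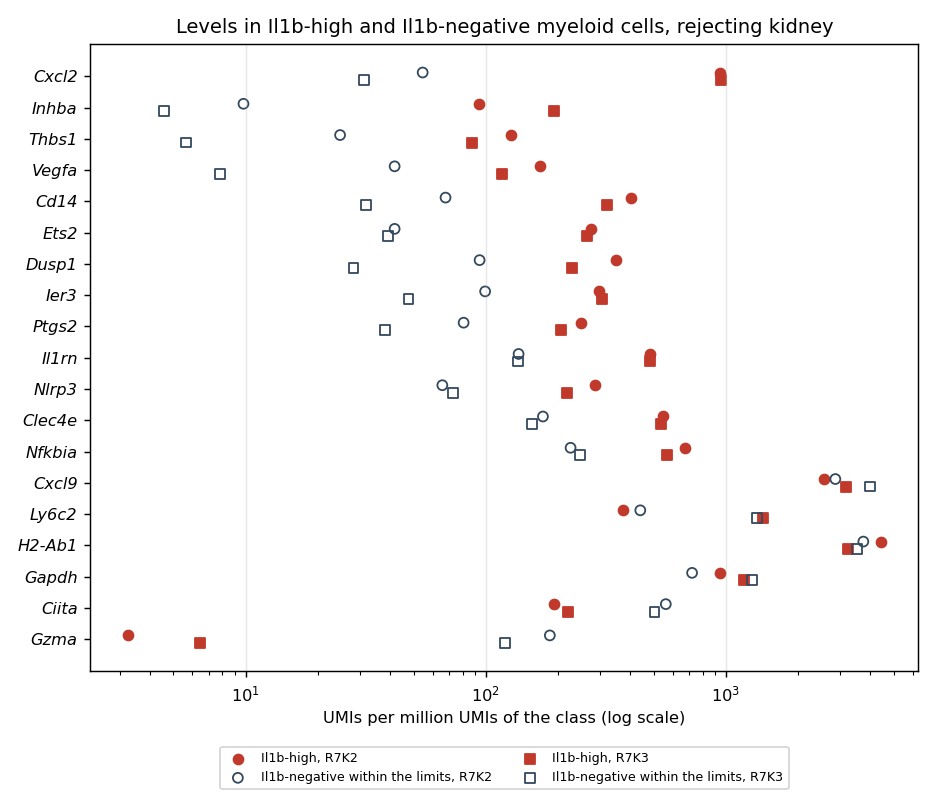
Levels of 19 genes in CPM, on a log scale, in Il1b-high cells (filled red) and Il1b-negative myeloid cells within the limits (open) of R7K2 (circles) and R7K3 (squares). From Cxcl2 down to Nfkbia both filled points lie to the right of both open points, Cxcl9, Ly6c2, H2-Ab1, and Gapdh overlap or lie close, and Ciita and Gzma are lower in the Il1b-high cells.

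Detection of the markers per cell was limited by depth. A Cxcl2 UMI was found in 42.1% of the Il1b-high cells, a Cd14 UMI in 48.0%, and a Thbs1 UMI in 12.6%. In Il1b-negative cells within the limits these shares were 3.48%, 6.78%, and 1.47%, and in T cells of the same libraries, which should lack these genes, they were 0.969%, 1.51%, and 0.395%, at median depths of 2438.5, 2087.5, and 2108 UMIs. After each cell was thinned to 1000 UMIs, with no cell of these classes left out, Cxcl2 was found in 31.1% of the Il1b-high cells, 2.41% of the Il1b-negative cells, and 0.431% of the T cells. Cd14 then stood at 26.8%, 3.15%, and 0.646%. Both genes were found in 226 of 838 Il1b-high cells (27.0%) and in 1.49% of the Il1b-negative cells, while 541 Il1b-high cells (64.6%) had a UMI of at least 1 of the 3 markers. The other cells of the rule had none of the 3 at this depth.

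In the IL-1 system, the products that limit IL-1 were higher together with the sensor of the inflammasome. Il1rn, the secreted receptor antagonist, was at 481 and 485 CPM against 137 and 136 CPM, 3.51 and 3.56 times the level of the Il1b-negative cells. Il1r2, the decoy receptor, was at 128 and 65.0 CPM against 43.3 and 15.6 CPM. Nlrp3 was at 285 and 217 CPM against 65.9 and 72.9 CPM. Casp1, which encodes the cleaving protease, was at 138 and 176 CPM against 149.9 and 182 CPM, ratios of 0.920 and 0.967. Of all genes, 2.13% were called higher and 1.2% lower. Of the 17 genes of the IL-1 list that reached 20 CPM, 3 (Il1rn, Il1r2, and Nlrp3) were called higher and 1 was called lower, at a list median of 0.19. The gene called lower was P2rx7, the ATP-gated channel that is a known trigger of the NLRP3 inflammasome, at 22.6 and 17.1 CPM against 56.7 and 40.0 CPM. Il1a, which encodes the sister cytokine IL-1α, was under the limit of 20 CPM, at 22.6 and 17.1 CPM against 5.15 and 1.68 CPM.

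Chemokines and cytokines split in the same way between a few large differences and many small ones. Besides Cxcl2, 4 of the 17 genes were called higher, where 2.13% of all genes were. Ccl3 and Ccl4 encode inflammatory chemokines. Ccl3 was at 104 and 128 CPM against 36.6 and 19.9 CPM, and Ccl4 was at 211 and 222 CPM against 83.9 and 32.7 CPM. Ptgs2, the cyclooxygenase that makes prostaglandin precursors, was at 249 and 205 CPM against 80.9 and 37.9 CPM. Osm, the IL-6 family cytokine oncostatin M, was at 75.4 and 47.8 CPM against 18.0 and 7.18 CPM. Tnf differed less, with 92.6 and 114 CPM against 88.1 and 77.8 CPM. Cxcl9, an interferon-induced chemokine that attracts CXCR3+ T cells, was abundant but not higher, at 2568 and 3178 CPM against 2859 and 3999.8 CPM. The list had a median of 0.42, against -0.14 for all genes.

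Ccl5 was the gene of this list called lower, at 112 and 88.5 CPM against 539 and 184 CPM. T and NK cells make much Ccl5, and the T and NK cell genes Gzma and Nkg7 were lower too, Gzma at 3.23 and 6.42 CPM against 185 and 119.9 CPM. When both classes had to hold at least 3 UMIs of Lyz2 and Csf1r together, the log2 ratio of Ccl5 was -0.40 in place of -1.44, so the call did not hold. The part of T and NK cell RNA in the lower Ccl5 was not tested.

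All 25 NF-kB targets and feedback genes that reached 20 CPM were higher in both libraries, where 1515 of all 6102 genes were, and 8 of them were called higher. The list median was 1.12, and of all genes 2.13% were called higher. Nfkbia encodes the inhibitor IκBα, a classic NF-kB target, and was at 676 and 568 CPM against 226 and 248 CPM. Nfkbiz, an atypical IκB protein, was at 337 and 253 CPM against 117 and 101 CPM. Ier3, an early response gene, was at 296 and 304 CPM against 99.4 and 47.7 CPM, and Cd83, a marker of activation, was at 233 and 104 CPM against 88.6 and 18.8 CPM. The other genes called were Nfkbie, Rel, Traf1, and Zfp36. Icam1, also on the list, was at 143 and 173 CPM against 128 and 165 CPM, and Tnfaip3, the ubiquitin-editing feedback inhibitor A20, was at 142 and 168 CPM against 89.1 and 63.4 CPM.

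The promoters of Il1b, of the leading genes Cxcl2 and Inhba, and of Nfkbia and Ptgs2 are shown. The rule chose the cells on Il1b, and the other transcripts were called higher in them. They are bases upstream of the RefSeq start in GRCm38.p6, in the direction of the gene and ending before the GENCODE start where that lies earlier, as for Cxcl2, with a match to the NF-kB consensus, searched on both strands, in capitals. Il1b lies on chromosome 2 at 129364570 to 129371139 on the minus strand, with its promoter at chr2:129371140-129371389. Cxcl2 lies on chromosome 5 at 90903871 to 90905938 on the plus strand, with its promoter at chr5:90903649-90903870, and the promoter of Nfkbia is at chr12:55492648-55492897 on the minus strand. Those of Inhba and Ptgs2, on the plus strand, are at chr13:16011601-16011850 and chr1:150099781-150100030.
Il1b: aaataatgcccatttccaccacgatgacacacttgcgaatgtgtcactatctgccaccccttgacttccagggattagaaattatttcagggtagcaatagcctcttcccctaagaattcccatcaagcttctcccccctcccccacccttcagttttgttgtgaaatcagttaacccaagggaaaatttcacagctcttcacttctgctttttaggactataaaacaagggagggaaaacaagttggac
Cxcl2: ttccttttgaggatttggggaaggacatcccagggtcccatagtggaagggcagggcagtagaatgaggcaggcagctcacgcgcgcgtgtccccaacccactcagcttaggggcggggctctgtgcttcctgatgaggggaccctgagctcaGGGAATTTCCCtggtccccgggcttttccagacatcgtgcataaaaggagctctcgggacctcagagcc
Nfkbia: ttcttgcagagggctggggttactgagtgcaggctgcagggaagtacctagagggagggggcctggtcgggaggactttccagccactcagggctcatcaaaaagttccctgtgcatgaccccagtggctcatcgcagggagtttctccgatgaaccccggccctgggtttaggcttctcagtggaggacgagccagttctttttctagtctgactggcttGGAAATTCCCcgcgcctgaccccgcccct
Inhba: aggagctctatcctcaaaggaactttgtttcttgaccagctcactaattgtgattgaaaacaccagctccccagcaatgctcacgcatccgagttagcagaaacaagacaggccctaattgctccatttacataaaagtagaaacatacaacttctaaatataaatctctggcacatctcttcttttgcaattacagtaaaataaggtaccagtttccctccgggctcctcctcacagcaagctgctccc
Ptgs2: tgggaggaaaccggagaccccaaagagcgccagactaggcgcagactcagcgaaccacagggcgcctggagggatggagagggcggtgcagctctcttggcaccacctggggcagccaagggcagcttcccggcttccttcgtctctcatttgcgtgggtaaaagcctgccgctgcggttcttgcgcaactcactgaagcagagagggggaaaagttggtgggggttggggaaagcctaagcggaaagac
The match in Cxcl2 lies 69 to 59 bases upstream of the GENCODE start, where 2 overlapping matches were found, and that in Nfkbia lies 29 to 20 bases upstream of the RefSeq start. The windows of Il1b, Inhba, and Ptgs2 held no match, which says only that these letters are not in them. The consensus was found in 7.25% of 32851 mouse promoters of this kind. Counted per gene, with any promoter of the gene matching, it was found in 8.23% of 27025 genes. By the same count it was found in 10.98% of the genes tested here that had a promoter in the table. It was found in 17 of the 97 genes called higher that had a promoter in the table (17.5%), and in 4 of 51 called lower (7.84%). The AP-1 motif TGANTCA was found in 6.75% of all promoters, in 7.82% of all genes, and in 5.86% of the genes tested that had a promoter. It was found in 11 of the 97 genes called higher (11.3%), 4 of the 51 called lower (7.84%), and 0 of 18 immediate early genes. In the NF-kB list the AP-1 motif was found in 5 of the 21 genes that had a promoter (23.8%). The NF-kB consensus was found in 11 of those 21 genes (52.4%) and in 5 of the 18 immediate early genes (27.8%). These matches are letters in a window and were not tested as sites.

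Receptors of microbial and damage signals were called higher for 5 of 20 genes, where 2.13% of all genes were, at a list median of 0.47. Besides Cd14, they included Clec4e, the receptor Mincle for mycobacterial glycolipids and dying cells, at 549 and 535 CPM against 173 and 156 CPM. Its neighbour and partner Clec4d was at 194 and 245 CPM against 54.1 and 75.9 CPM. Trem1, an amplifier of inflammatory signals, was at 60.3 and 90.7 CPM against 17.0 and 14.2 CPM, and C5ar1, the receptor of complement fragment C5a, was at 87.2 and 104 CPM against 42.7 and 49.5 CPM. Tlr2 lay close to the limit of 2-fold, with ratios of 1.98 and 2.06. Tlr4, the signalling partner of CD14, was not higher, at 56.0 and 81.4 CPM against 86.5 and 79.3 CPM.

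Genes of matrix, coagulation, and repair had 7 of 18 members called higher, where 2.13% of all genes were, and a list median of 0.85. Inhba, a subunit of activin A, was at 93.7 and 192 CPM against 9.79 and 4.58 CPM, or 9.58-fold and 41.9-fold. Its pooled ratio of 26.5 was close to the 26.1 of Cxcl2, and with equal weight for each library its log2 ratio of 4.32 was second to the 4.53 of Cxcl2 among the 6102 genes. Vegfa, the angiogenic growth factor, was at 168 and 117 CPM against 41.7 and 7.79 CPM. Cd44, the hyaluronan receptor, was the most abundant, at 1375 and 997 CPM against 549 and 301 CPM. Plaur, the urokinase receptor, was at 370.5 and 289.8 CPM against 177 and 74.1 CPM. The others called were Thbs1, Mmp19, and Olr1. F10, coagulation factor X, was at 338 and 373 CPM against 249.8 and 177 CPM. Fn1 was at 48.5 and 28.6 CPM against 59.7 and 38.2 CPM, and Spp1, a marker of profibrotic macrophages, was at 4.31 and 8.57 CPM.

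Immediate early genes, which answer within minutes to signals or to tissue digestion, were also higher throughout. All 18 that reached 20 CPM were higher in both libraries, at a list median of 1.66. Of them 11 were called higher, where 2.13% of all genes were. Dusp1, a phosphatase that shuts down MAP kinases, was at 349 and 229 CPM against 94.2 and 28.1 CPM. Fos was at 584 and 539.7 CPM against 271 and 149 CPM, Fosb was at 303 and 107 CPM against 81.4 and 14.97 CPM, and Junb was at 699 and 485 CPM against 273 and 139 CPM. Klf4, a transcription factor of monocyte differentiation, was at 341 and 137 CPM against 87.6 and 28.9 CPM. Among the leading genes outside the lists were the transcription factors Ets2, at 275 and 263 CPM against 41.7 and 39.1 CPM, and Nr4a2, at 159 and 168 CPM against 58.7 and 20.5 CPM. Ifrd1, a transcriptional coregulator, was at 849.8 and 628 CPM against 248 and 98.7 CPM, and Ccrl2, a chemerin receptor, was at 276 and 288 CPM against 77.8 and 48.4 CPM. The polarity gene Mpp7 was the remaining leading gene, at 270.3 and 209 CPM against 109 and 22.3 CPM. The kidneys were digested with collagenase before sorting, and the part of this step was not tested.

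Of 22 interferon-stimulated genes none was called within the limits, where 2.13% of all genes were called higher and 1.2% lower. The list median was -0.09, against -0.14 for all genes. Against all Il1b-negative myeloid cells 2 of 22 were called higher, where 3.22% of all genes were, and the median was 0.25. Gbp5, a GTPase that interferon-γ induces, was at 405 and 855 CPM against 567 and 845 CPM, and Irf1 was at 466 and 625 CPM against 476 and 653 CPM. Hypoxia and glycolysis genes had a median of 0.09 over 20 genes, with 2 called higher. One was Hilpda, a lipid droplet protein, at 47.4 and 26.4 CPM against 14.4 and 4.13 CPM, and the other was Ier5. Ldha, lactate dehydrogenase, was at 370.5 and 357 CPM against 299 and 384 CPM.

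Antigen presentation genes were divided. The costimulatory ligands of CD28 were called higher. Cd80 was at 100.2 and 81.4 CPM against 24.7 and 25.4 CPM, and Cd86 was at 841 and 735 CPM against 395 and 261 CPM. Ciita, the master regulator of MHC class II genes, was called lower, at 193 and 219.9 CPM against 562 and 505 CPM. H2-Ab1, a chain of MHC class II that depends on CIITA, was at 4423 and 3216 CPM against 3741 and 3513 CPM. In the list of 11 genes the median was 0.05 and these 3 were the calls, where 2.13% of all genes were called higher and 1.2% lower. Other genes lower at a mean of at least 100 CPM were the long noncoding RNA AU020206, at 145 and 192 CPM against 420.3 and 420.0 CPM, and Otulinl, at 89.4 and 75.7 CPM against 189.5 and 152 CPM. Lrrk1, Ski, Zmynd8, Gm26740, Zfp710, and Cpq followed with pooled ratios between 0.474 and 0.502 and passed the 2-fold limit in R7K2 but not in R7K3.

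**Figure D2:**
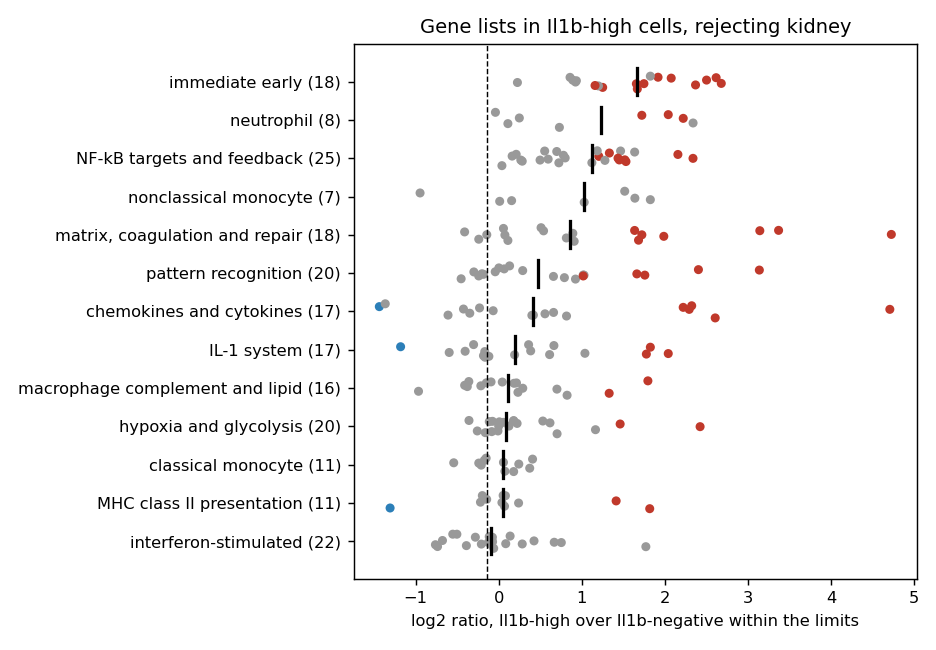
Log2 ratio of each listed gene, Il1b-high over Il1b-negative cells within the limits, counts pooled over R7K2 and R7K3, with the number of genes in brackets. Red points were called higher and blue points lower, grey points were not called, the black bar is the list median, and the dashed line is the median of all genes at -0.14, with immediate early genes at a median of 1.66 and interferon-stimulated genes at -0.09.

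Within the limits 2.13% of all genes were called higher and 1.2% lower, so a short list can often hold no call. Of the cell type markers, none of 11 classical monocyte genes was called within the limits, at a median of 0.06. Against all Il1b-negative myeloid cells their median was 0.68 and 1 was called higher, where 3.22% of all genes were called higher and 3.89% lower. Ccr2, the receptor that brings monocytes out of the marrow, was at 561 and 537 CPM against 856 and 778 CPM. A UMI of Ccr2 or Ly6c2 was found in 83.3% of Il1b-high and 86.6% of Il1b-negative cells. In T cells of the same libraries a Ccr2 UMI was found in 32.4% and a Ly6c2 UMI in 25.8%. Csf3r and S100a8 UMIs were found in 1.36% and 1.65% of the same T cells. Whether T cells made the Ccr2 and Ly6c2 RNA or carried it as background was not tested. The part of background RNA in the shares of the myeloid cells was not tested either. None of 7 nonclassical monocyte genes was called within the limits, although their median was 1.03, and 3 were called higher and 1 lower against all Il1b-negative cells. Treml4 was at 94.8 and 80.7 CPM against 54.6 and 38.7 CPM, while Cx3cr1 was at 60.3 and 64.2 CPM against 160.2 and 109 CPM. A UMI of Treml4 or Ace was found in 22.2% of Il1b-high and 9.38% of Il1b-negative cells.

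Neutrophil genes were present at a low level. Of 18 listed genes, 8 reached 20 CPM, and Il1r2, Hdc, and Mxd1 were called higher, where 2.13% of all genes were. None of these 3 is confined to neutrophils, and which cells made them here was not tested. The list median was 1.23, with 6 of the 8 higher in both libraries and 0 lower. Against all Il1b-negative cells it was 1.86, with all 8 higher in both libraries and 5 called higher, where 3.22% of all genes were. The list summed to 1578 and 1922 CPM in the Il1b-high cells and to 849.8 and 711 CPM in the Il1b-negative cells. Retnlg, which defines mature neutrophils, was at 4.31 and 14.3 CPM, and a UMI of Cxcr2 or Retnlg was found in 17 of the 838 cells (2.03%) and in 4 of the 3616 Il1b-negative cells (0.111%). The part of such cells in the values above was not tested. Csf3r, the G-CSF receptor, was at 107 and 87.1 CPM against 105 and 95.5 CPM. The 2 dendritic cell genes that reached 20 CPM were not called. Of the macrophage complement and lipid genes, Cd9 and Cd36 were the 2 of 16 called higher, where 2.13% of all genes were. Apoe, a lipid carrier of macrophages, was at 1808 and 372 CPM against 2771 and 536 CPM. The cell cycle genes Mki67 and Top2a were called lower, Mki67 at 11.8 and 21.4 CPM against 47.4 and 60.7 CPM.

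Several of these genes were higher at high Il1b counts, though not at every step. These steps use cells within the other limits that had a Lyz2 or Csf1r UMI. Cxcl2 went from 54.6 and 31.0 CPM at 0 Il1b UMIs to 288 and 191 CPM at 1 UMI, 681 and 455 CPM at 3 UMIs, 460.3 and 424 CPM at 4 to 5 UMIs, and 1730 and 1899 CPM in the 91 and 116 cells with 10 or more. Il1rn went from 137 and 136 CPM at 0 to 409.6 and 279.6 CPM at 2, 316 and 268 CPM at 3, and 676 and 750.3 CPM at 10 or more. Thbs1 was uneven too, with 82.8 and 45.5 CPM at 2 UMIs, 42.1 and 24.4 CPM at 3 UMIs, and 284 and 171 CPM in cells with 10 or more. Ciita went the other way, from 562 and 505 CPM to 131 and 163 CPM. The median depth of the cells was 2602 and 2667 UMIs at 10 or more, against 1831 and 2212 UMIs at 0, and its part was not tested. At the edges of the rule, 155 cells with exactly 3 Il1b UMIs had 526 CPM of Cxcl2 and 200.4 CPM of Cd14, and 279 cells with 2 UMIs, just outside, had 335 and 227 CPM. The 24 cells at a C1q sum of 2 had 683 CPM of Cxcl2, and the 12 cells at 3, just outside, had 512 CPM. Only 2 cells lay just inside and 2 just outside the Arg1 limit. Whether the cells inside the limit form a type apart from those outside was not tested.

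**Figure D3:**
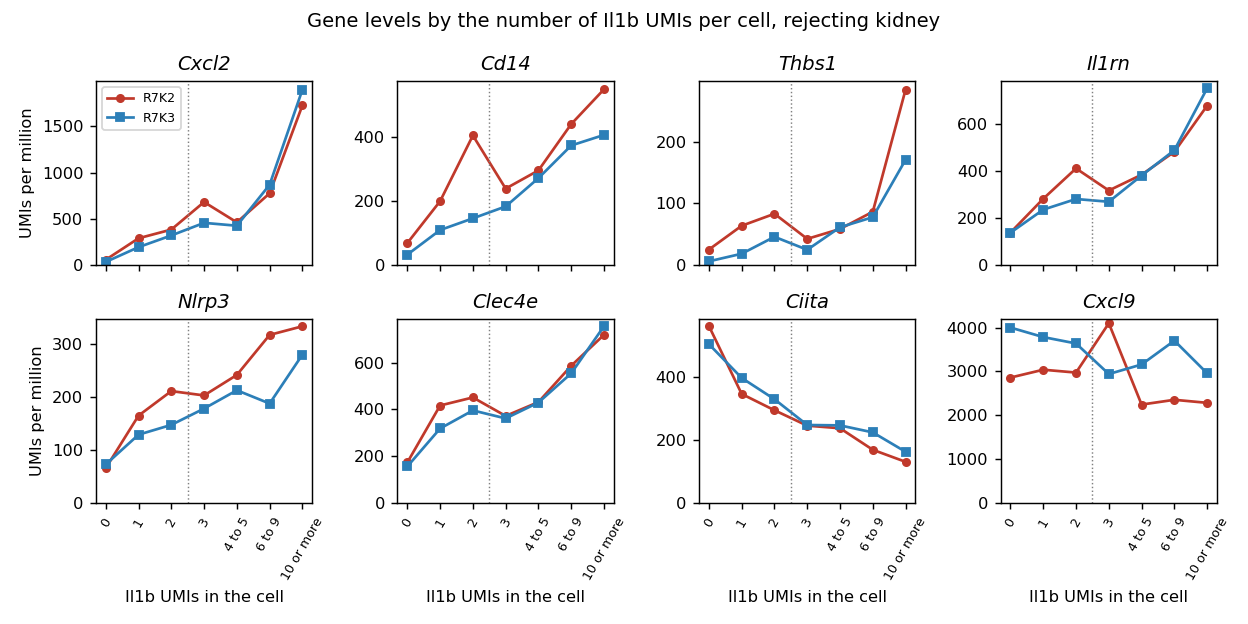
Levels of 8 genes in CPM against the number of Il1b UMIs in the cell, from 0 to 10 or more, in R7K2 (red circles) and R7K3 (blue squares). The dotted line marks the limit of the rule between 2 and 3 UMIs, Cxcl2 reaches 1730 and 1899 CPM at the right end, Ciita declines to 131 and 163 CPM, and Cxcl9 shows no steady direction.

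The Il1b-high cells of the 2 libraries were not alike in every gene. Of 1881 genes with at least 100 CPM in their mean, 51 (2.71%) differed at least 2-fold between the libraries. Ly6c2, the marker of classical monocytes, was at 373 CPM in R7K2 and 1429.9 CPM in R7K3, and its share of cells with a UMI was 45.5% and 84.9%. Apoe was at 1808 and 372 CPM. Nos2, the inducible nitric oxide synthase, was at 57.1 and 231 CPM, and the interferon-stimulated gene Rsad2 was at 91.5 and 477 CPM. The Il1b-negative cells differed the same way for Ly6c2, with 440.3 and 1345 CPM, and for Apoe, with 2771 and 536 CPM. Cxcl2, Il1rn, Clec4e, and Ets2 were within 1.1 times of each other in the Il1b-high cells of both libraries.

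The same limits were then applied to naive spleen, whose cells had no part in the rule. They were met by 305 of 47060 cells, 157 in NS1, 18 in NS2, 103 in NS3, 13 in NS4, and 14 in NS5. These cells differed from those of the kidney in type. Their 18 neutrophil genes summed to between 26320.4 CPM in NS2 and 178223 CPM in NS1, against 1578 and 1922 CPM in the kidney. They were compared with 452 Il1b-negative cells within the limits by edgeR's quasi-likelihood test with the library as a block and Benjamini-Hochberg adjustment. The Il1b-negative cells were deeper, with a median of 5715.5 UMIs against 1668, and held more RNA of T and NK cells (388 to 892 CPM against 17.7 to 240.2 CPM over the 11 genes), and the part of both was not tested. Of 3786 genes, 477 (12.6%) rose and 590 (15.6%) fell at an adjusted p under 0.05. Without NS1 and NS3, which held most of the cells and in which the Il1b-negative cells also carried much neutrophil RNA (154947 and 104084 CPM), 82 genes rose and 20 fell. With TMM factors 539 rose and 423 fell, so that the share of calls that rose was 56.0% and not 44.7%, and the median of all genes moved by 0.12 on the log2 scale.

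Part of the kidney pattern was also higher in these spleen cells. Neutrophil genes such as Csf3r rose and the monocyte gene Ccr2 fell in the same contrast. A difference in cell type and one in Il1b level cannot be told apart there. Ptgs2 was at 263, 215, 279.9, 154, and 328 CPM in the Il1b-high cells of NS1 to NS5 and between 2.83 and 12.1 CPM in the Il1b-negative cells, with no overlap, a log2 fold change of 4.74 (SE 0.33, adjusted p = 9.7e-09). Nlrp3 was at 209, 88.5, 149, 110.0, and 205 CPM against 13.1 to 56.5 CPM, again without overlap, and rose by 2.59 (SE 0.39, adjusted p = 8.9e-05). Clec4d rose by 4.82 and Clec4e by 2.56, and Ets2 rose by 3.62. Dusp1 rose by 2.99 and Ier3 by 2.91. Cd14 rose by 1.63 (SE 0.37, adjusted p = 0.0037), although NS5 had 0 CPM in either class and the classes overlapped. By list, 13 of 18 immediate early genes rose and 1 fell, and 7 of 11 pattern recognition genes rose. In the NF-kB list 6 of 20 rose and 1 fell, and in the neutrophil list 10 of 16 rose and 2 fell. Among all genes 12.6% rose and 15.6% fell.

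Cxcl2, Inhba, and Vegfa did not pass the filter on low counts in this fit. Cxcl2 was nevertheless present in the spleen Il1b-high cells, at 732, 12.6, 397, 242, and 328 CPM in NS1 to NS5.

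Other genes of the kidney pattern did not rise there. Thbs1 had a log2 fold change of 0.0052 (SE 0.47, adjusted p = 1), with 43.9, 75.9, 60.2, 0.00, and 40.9 CPM against 56.8, 16.2, 82.4, 5.66, and 8.72 CPM. Klf4 fell by 1.44 (SE 0.35, adjusted p = 0.0055), where it was higher in the kidney. Plaur differed by 0.28 (SE 0.34, adjusted p = 0.57) and Cd86 by 0.51 (SE 0.45, adjusted p = 0.42). Of 10 classical monocyte genes outside the rule, 8 fell and 2 rose, where 15.6% and 12.6% of all genes did. The Il1b-negative cells had to hold a UMI of Lyz2 or Csf1r, both monocyte genes, and the Il1b-high cells did not. Such a UMI was found in 110, 14, 79, 11, and 11 Il1b-high cells of NS1 to NS5. The part of this choice in the fall of monocyte genes was not tested. Ccr2 was at 207 ± 132 CPM against 793 ± 146 CPM (SD, n = 5) and fell by 1.87 (SE 0.27, adjusted p = 6.1e-05). Ly6c2 fell by 2.40, and Csf3r rose by 3.80. Whether kidney and spleen differ in these changes was not tested.

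Set directly against each other, the Il1b-high cells of rejecting kidney (n = 2 libraries) and naive spleen (n = 5) differed widely. Of 5431 genes, 1446 (26.6%) were higher in the kidney and 685 (12.6%) were lower, by edgeR's quasi-likelihood test at an adjusted p under 0.05. The groups differ in tissue and transplantation, the graft model mixes B6 and DBA/2J mice, and the kidney was digested with collagenase while the spleen was ground and freed of red cells by lysis. The same kind of droplet kit was used. These differences cannot be told apart, and fewer cells of a type and less RNA per cell cannot be separated in these sums. CPM here is over the 17644 genes that both tables hold, so that kidney values differ slightly from those above. Without NS1 and NS3 the calls were 521 and 282.

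Neutrophil genes had the list median farthest from that of all genes, with 16 of 18 lower in the kidney, none higher, and a median of -6.08 against 0.34. S100a8, a calcium-binding protein abundant in neutrophils, was at 292 and 585 CPM in the kidney and at 70735, 10404, 45547, 18836, and 17688 CPM in NS1 to NS5. Every spleen library lay far above both kidney libraries, a log2 fold change of -6.22 (SE 0.88, adjusted p = 2.7e-05). Csf3r was at 107 and 87.4 CPM against 1519 ± 616 CPM (SD, n = 5) and differed by -3.96. Retnlg, Wfdc21, and Mmp9 were among the 5 genes with the largest fold to the spleen side. Retnlg had 24 UMIs in the kidney cells and 4723 in the spleen cells, a pooled level 648 times higher in the spleen (95% interval 435 to 1013, counting error only). For Mmp9 the pooled spleen level was 539 times higher, with 3 UMIs in the kidney (183 to 2623), and for Wfdc21 it was 906 times higher, also with 3 UMIs (309 to 4401). Of 11 classical monocyte genes 5 were higher in the kidney and 2 lower, and of 6 nonclassical genes none was higher and 1 was lower. Across all genes 26.6% were higher and 12.6% lower. Ly6c2 was at 374 and 1435 CPM against 230.5, 189.6, 191, 66.0, and 40.9 CPM, a difference of 2.42 (SE 0.47, adjusted p = 0.00052), and Ccr2 was at 563 and 539 CPM against 207 ± 132 CPM (1.27, SE 0.43, adjusted p = 0.026). The directions of Ccr2 and S100a8 turned when only Csf1r+ Csf3r- cells were compared, as given below.

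**Figure D4:**
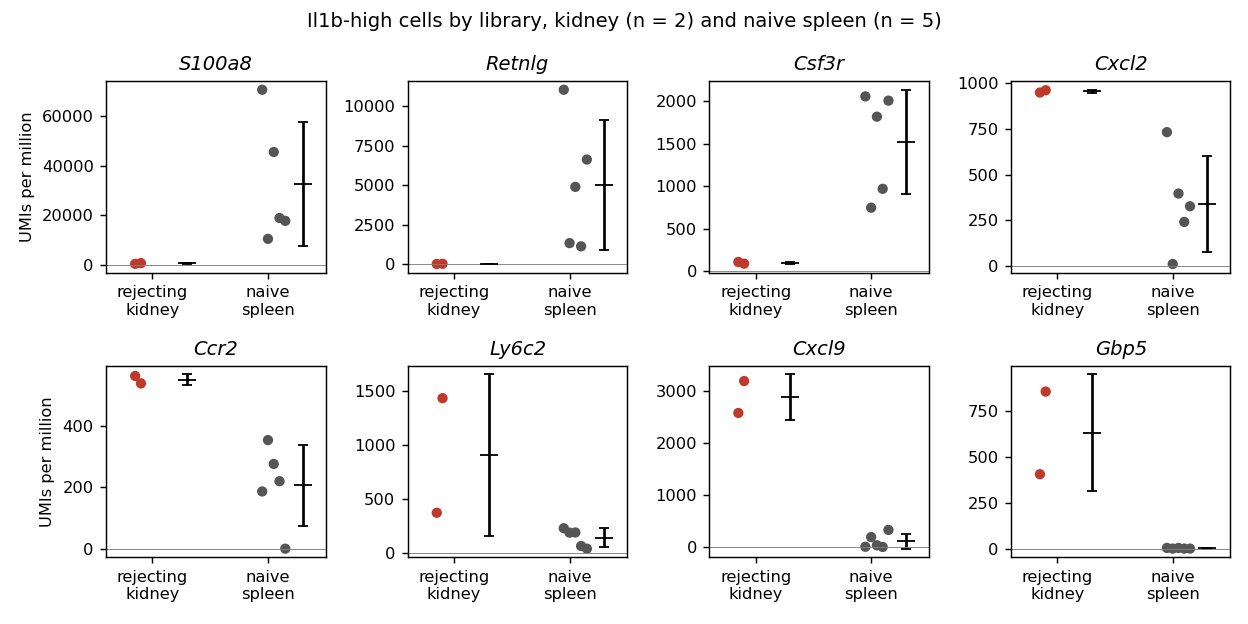
Levels of 8 genes in CPM in Il1b-high cells of rejecting kidney (red, n = 2 libraries) and naive spleen (grey, n = 5 libraries), on linear axes, with the mean ± SD beside the points. S100a8, Retnlg, and Csf3r are low in both kidney libraries and high in every spleen library, and Cxcl2, Ccr2, Ly6c2, Cxcl9, and Gbp5 are higher in both kidney libraries than in any spleen library.

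Of the genes that limit IL-1, Il1rn was higher in the kidney cells and Il1r2 did not pass the test (log2 fold change -0.69, SE 0.48, adjusted p = 0.27). Il1rn was at 483 and 487 CPM against 109.7, 37.9, 142, 110.0, and 81.9 CPM, without overlap (log2 fold change 2.21, SE 0.36, adjusted p = 9.9e-05). Inhba was at 94.0 and 193 CPM against 3.59 ± 5.05 CPM (SD, n = 5; 4.32, SE 0.56, adjusted p = 1.1e-05), and Vegfa was at 169 and 118 CPM against 9.08 ± 8.60 CPM (4.25, SE 0.51, adjusted p = 5.7e-06). Cd14 was at 404 and 320.3 CPM against 146, 12.6, 95.7, 88.0, and 0.00 CPM (2.00, SE 0.44, adjusted p = 0.0014). Of 17 matrix and repair genes tested, 12 were higher and 2 lower, the latter being the neutrophil collagenase Mmp8 and the gelatinase Mmp9. In the IL-1 list 7 of 16 were higher, where 26.6% of all genes were higher and 12.6% lower. Among the 7 were Casp1 (1.60, SE 0.39, adjusted p = 0.0035) and Irak2 (3.93, SE 0.44, adjusted p = 3e-06). Il1rap, the coreceptor of the IL-1 receptor, was lower (-2.27).

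Cxcl2 was at 948 and 960.3 CPM against 732, 12.6, 397, 242, and 328 CPM, with both kidney libraries above every spleen library, but the difference of 1.39 (SE 0.57, adjusted p = 0.063) did not pass the threshold. Without NS1 it was 1.93 and without NS2 it was 1.07, and both passed. Thbs1 passed narrowly, at 128 and 88.1 CPM against 44.2 ± 28.4 CPM (1.09, SE 0.41, adjusted p = 0.041), and it no longer passed in 8 alternatives, among them those without NS1, NS3, NS5, R7K2, or R7K3, with values from 0.73 to 1.36. Ptgs2 differed by -0.13 (SE 0.33, adjusted p = 0.79) and Nfkbiz by -0.17 (SE 0.36, adjusted p = 0.74).

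Interferon-stimulated genes differed in part between the Il1b-high cells of the tissues. The 23 genes of the list summed to 9357 and 13975 CPM in the kidney, here over all genes of the kidney table. In NS1 to NS5 they summed to 14457, 4147, 9421, 4973, and 5282 CPM, so that the sums overlapped. Of 22 genes tested, 11 were higher in the kidney and 2 were lower, at a list median of 1.16. For all genes, 26.6% were higher and 12.6% lower, at a median of 0.34. Cxcl9 was at 2576 and 3190.4 CPM against 3.66, 189.6, 31.9, 0.00, and 328 CPM (5.35, SE 0.78, adjusted p = 3.6e-05). Gbp5 was at 406 and 858 CPM against 1.44 ± 1.97 CPM (7.68, SE 0.58, adjusted p = 1e-07). The 5 genes with the largest fold to the kidney side included 4 that interferon induces or that belong to its GTPase families. Cxcl10 had no UMI in the spleen cells and was at least 137-fold higher in the kidney, Gbp2b was at least 96.3-fold higher, and Gm4951 at least 89.8-fold higher, against a floor of 3 counts over the spleen group. Iigp1 was 574 times higher, with 2 UMIs in the spleen cells (95% interval 159 to 4745).

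Immediate early genes went the other way, with 12 of 20 lower in the kidney and 2 higher, at a list median of -1.48. Fos was at 586 and 542 CPM against 2343 ± 909.9 CPM (SD, n = 5; -2.05, SE 0.47, adjusted p = 0.0022), and Dusp1 was at 350.1 and 230.0 CPM against 2155 ± 1037 CPM (-2.89, SE 0.58, adjusted p = 0.00065). The 2 higher in the kidney were Atf3, a stress response factor, by 2.05 (SE 0.40, adjusted p = 0.00054), and Dusp5, by 1.62. In the NF-kB list 12 of 26 genes were higher, with Sod2 at 2.93 and Acod1, the enzyme that makes itaconate, at 2.22. The 2 lower included Zfp36, which destabilizes cytokine mRNA, at -3.23. Over all genes the shares were 26.6% higher and 12.6% lower.

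The largest differences were also seen over all CD45+ cells. Iigp1 had a UMI in 7621 of all 11948 kidney cells and in 978 of all 47060 spleen cells, Gbp2b in 5627 and 21 cells, Gm4951 in 5416 and 80 cells, and Cxcl10 in 3223 and 141 cells. Cmss1 was 526 times higher in the kidney (180 to 2549, with 3 UMIs in the spleen), and it had a UMI in 11315 kidney cells and 2423 spleen cells. Cstdc4 and Trim12a had no UMI in the kidney Il1b-high cells and were at least 508-fold and 176-fold lower there. In all cells Trim12a had 26 UMIs in the kidney against 34143 in the spleen, and Cstdc4 had 4 against 708. The part of strain and of the processing of either table in these genes was not tested.

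To set like cells against each other, the comparison was also made for cells with a Csf1r UMI and no Csf3r UMI, 180 and 245 cells in the kidney and 2, 3, 7, and 3 cells in NS1 to NS4, with none in NS5. Of the 694 genes tested there, 188 were higher and 155 lower. Cxcl2 had 1160 UMIs in the kidney cells and none in the spleen cells, at least 28.0-fold, and Cd14 was 27.9 times higher with 1 UMI in the spleen (95% interval 4.97 to 1104). Thbs1 was at 106 CPM against 55.7 CPM, a ratio of 1.91 whose interval of 0.799 to 5.98 holds 1. Ccr2 was lower in these kidney cells, at 549 CPM against 947 CPM, a ratio of 0.579 (95% interval 0.462 to 0.735), and S100a8 was 9.47 times higher (3.68 to 34.9), with 4 UMIs in the spleen. Ly6c2 was 4.39 times higher (2.83 to 7.21). These spleen values rest on 15 cells.

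The share of cells that met the rule is given as a description, since the rule used the same counts. Among cells with a Lyz2 or Csf1r UMI and no lymphocyte UMI it was 12.8% (365 of 2858 cells) in R7K2 and 10.3% (454 of 4395 cells) in R7K3, or 11.6% ± 1.73 (SD, n = 2). In naive spleen it was 23.6%, 13.9%, 28.3%, 9.57%, and 11.7% in NS1 to NS5, or 17.4% ± 8.11 (SD, n = 5). Both kidney shares lay within the range of the spleen libraries, and the means differed by -5.85 percentage points. The difference was -4.12 points after cells were thinned to 1000 UMIs and 3.29 points, in the other direction, after thinning to 2000 UMIs, which left out shallower cells. In NS1 the rule was met by 110 of 467 cells before and by 28 of 355 cells after thinning to 2000 UMIs.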

How the data were processed

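Viable CD45+ cells were sorted and made into 3′ droplet libraries, and reads were aligned by the authors to mm10 using Cell Ranger (its version not given in the sources used here), filtered cells by UMIs, mitochondrial content, and genes, and deposited raw UMI counts per gene and cell without normalization. The limits of that filter are not given in the sources used here. Groups came from the sample labels and libraries from the tags in the barcodes. The Il1b-high cells and the gene lists were chosen with earlier results of these data known, and the alternatives without NS1 and NS3 and with equal weight for each library were chosen after seeing the data. Matrices of accepted grafts were not used here.

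UMIs were summed per library and class and scaled to CPM by plain totals. Kidney classes were compared by ratios only. Naive spleen classes, and kidney against naive spleen, were tested with edgeR 4.0.16 (R 4.3.3; low-count filter, quasi-likelihood test, Benjamini-Hochberg adjustment, threshold 0.05), with the SE computed from the fold change and its F statistic. DESeq2 1.42.0 and TMM factors were alternatives. p-values measure the spread between these libraries, which may be technical. Both spleen classes of a library come from the same preparation, so the library was a block in that fit. Exact intervals at 95% (binomial) cover counting error only (Python 3.11.15, scipy 1.17.1). The planned permutation test of the share of cells is not reported, because the rule used the same counts and the design could not give a p under 0.0952. A doublet caller (scanpy 1.11.5) marked 1 of 11948 kidney cells, so it did not work as a filter, and doublets were not removed. The fits were also run on simulated data, and the outcome is not reported here.

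The genes named are the label markers, genes of the fixed lists, the 10 largest and the 10 smallest pooled ratios against cells within the limits, and the 5 largest and 5 smallest fold changes of kidney against spleen without overlap of libraries. Ranked genes needed a mean of at least 100 CPM and the same direction in every library, leaving out the genes of the rule, antigen receptor genes, and genes of ribosomes and mitochondria. Of 350 listed genes, 346 were in the kidney table of 32285 genes, and the others were not analysed here. Coordinates are from GENCODE annotation of GRCm38 and promoters from RefSeq.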

Additional observations from a re-analysis of the deposited data

Results flagged for a closer look

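Of 14 sets of 5 spleen values examined for a sample far from the others, 2 had one. Cxcl10, Gbp2b, and Gm4951 were at 0 in every spleen library and could not have one. The usual chance rate of about 1 in 20 therefore does not describe these sets. Iigp1 was at 12.6 CPM in the Il1b-high cells of NS2, which had 18 cells, and at 3.54 CPM in NS3, with none in the others. The spleen cells held 2 Iigp1 UMIs in all, 1 in each of these libraries, so the gap is that of 1 count over a smaller total. Cstdc4 was at 1193 CPM in NS1, which held 157 of the 305 spleen cells, against 126 to 409 CPM in the others.

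Of 14 genes compared in direction, Klf4 was the one whose 2 kidney libraries went one way and whose 5 spleen libraries all went the other. Its log2 ratio of Il1b-high over Il1b-negative cells was 2.37 in the kidney, 1.96 in R7K2 and 2.25 in R7K3, and -1.44 in naive spleen. The pooled kidney value lies above both libraries because their shares of the classes differ, and at equal weight it was 2.11. Gm26740 also had opposite signs, with -1.04 in the kidney and 1.17 in naive spleen (edgeR, adjusted p = 0.010), but it was higher in NS1 and NS3 and lower in NS2, NS4, and NS5. Ciita and Ski were lower in the kidney and differed by 0.25 and 0.23 in naive spleen, neither past the threshold. These differences between the tissues were not tested. Of 16 neutrophil genes, 10 rose in the Il1b-high spleen cells, Csf3r among them, and 2 fell, and 16 of 18 were lower in the Il1b-high cells of the kidney than in those of the spleen. Their part in the opposite directions of Klf4 was not tested.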

How the results depend on the processing

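Genes higher than in Il1b-negative kidney cells within the limits numbered 130, 199 with TMM factors, and 180 to 216 with 1 library left out. Genes lower numbered 73, 304 with a mean of at least 5 CPM, 39 with at least 2 Il1b UMIs, 33 with TMM factors, and 133 to 356 with 1 library left out, from R7K3 alone and R7K2 alone. Against all Il1b-negative cells, genes lower numbered 243, 813 with at least 5 CPM, 154 with at least 3 Lyz2 and Csf1r UMIs, and 376 to 512 likewise, and genes higher stayed within 1.5 times under every alternative run. A lower limit on the mean tests more genes, and a single library requires no second one to show the difference.

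In naive spleen, the number that rose (477) was 271 to 561 with 1 library left out, 271 without NS1 and also without NS3, and 82 without both. The number that fell (590) was 342 by DESeq2, 926 without the low-count filter, 939 with at least 5 Il1b UMIs, 168 to 706 with 1 library left out, 168 without NS1 and 221 without NS3, and 20 without NS1 and NS3. Without the replicate block, the fit that ignores which library the paired classes came from, 435 rose and 457 fell. For kidney against spleen, the higher genes (1446) numbered 831 by DESeq2, 2176 without the filter, 188 in Csf1r+ Csf3r- cells, 521 without NS1 and NS3, and 587 to 1687 with 1 library left out, 587 without R7K3, 616 without R7K2, and 904 without NS3. The lower genes (685) numbered 155 in Csf1r+ Csf3r- cells, 282 without NS1 and NS3, and 249 to 765 with 1 library left out, 249 without R7K3, 286 without R7K2, and 419 without NS3. Where 1 kidney library was left, its spread was assumed to be that of the spleen. The difference in share was 3.29 points after thinning to 2000 UMIs, the one reversal among its alternatives, and -7.81 to -3.12 points with 1 library left out. Thbs1 in spleen ranged from -0.35 (without NS2) to 0.027 with 1 library left out, and was also reversed, at -0.062, without NS5. Apart from these, and from the fewer genes or cells that each alternative's own construction leaves, the causes were not tested. For single genes, 522 of the values recomputed stayed the same, 29 moved, 8 became weaker, 6 became stronger, and 2 reversed. A kidney ratio stayed the same when it changed by no more than the SD of its 2 libraries, and moved otherwise. That limit is wider where the libraries differ more, and it comes from the same libraries that were left out in turn. The alternative without doublets took out 1 kidney cell, which was not an Il1b-high cell. For kidney ratios these counts therefore do not measure stability. An edgeR fold change stayed the same when it kept its direction and side of the threshold. Shallow spleen groups of 13 to 18 cells limit what NS2, NS4, and NS5 can show.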
